A study of Homo sapiens with 6 samples.

Results

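Spindle checkpoint and mitotic kinase genes are the subject here: MAD2L1, BUB1, BUB1B, TTK, CDC20, CCNA2, CCNB1, CDK1, PLK1 and CDC25C. The genes were chosen by symbol for their function, all 10 were measured, each by 1 feature of the array, and they stand among 14884 named genes. RNA came from spheroids of SW480, a line from a primary colorectal tumour, and of SW620, a line from a lymph node metastasis, with 3 arrays per line. Both lines grew as suspended spheres without serum and with added growth factors, a culture meant to favour tumour-initiating cells, and no agent or genetic change is named for either. Per the design text of the series the 3 arrays are technical replicates, so every p-value below measures the spread between such arrays and not between separate cultures. Each group is a single established line, so a difference is between these lines and not between primary and metastatic tumours in general.

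The spindle checkpoint holds a dividing cell in metaphase until every chromosome is attached to the spindle. Unattached kinetochores recruit the kinase TTK and the BUB proteins, and MAD2L1 is turned into an inhibitor that captures CDC20, the activator of the anaphase-promoting complex. Release of CDC20 lets that complex mark cyclin B and securin for destruction. Entry into mitosis depends on CDK1 bound to cyclin B1, which CDC25C switches on by removing inhibitory phosphates and which PLK1 reinforces. These genes are transcribed mainly from late S phase to mitosis, through promoters in which a CHR element (cell cycle genes homology region) and CCAAT boxes are common. The CHR is bound by MuvB complexes, which repress as DREAM and activate with B-MYB and FOXM1, and the CCAAT box by NF-Y.

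Promoter sequences are shown because this type of control is common among such genes, and yet the 10 did not move together. RefSeq windows (GRCh38.p14) from 250 bases before to 50 bases after the start were matched for 9 of the 10 genes; the one without an entry is TTK. The 6 printed here run from 100 bases before to 40 bases after the start, 5′ to 3′ on the gene's strand, and come from genes lower in SW620 (MAD2L1, BUB1 and CCNA2), not passing the test (CDC20) and higher (CCNB1 and PLK1). Capitals mark TTTGAA (CHR), TTCGAA and CTTGAA (CHR variants) and CCAAT, each on either strand, and no matches share a base.
MAD2L1, chr4:120066809-120066948, minus strand: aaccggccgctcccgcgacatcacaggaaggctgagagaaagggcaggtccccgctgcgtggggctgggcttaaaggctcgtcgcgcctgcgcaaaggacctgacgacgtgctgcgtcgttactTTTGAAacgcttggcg
BUB1, chr2:110678024-110678163, minus strand: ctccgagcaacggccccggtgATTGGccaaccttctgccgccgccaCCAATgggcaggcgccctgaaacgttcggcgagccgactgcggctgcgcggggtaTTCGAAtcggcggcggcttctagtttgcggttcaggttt
CCNA2, chr4:121823844-121823983, minus strand: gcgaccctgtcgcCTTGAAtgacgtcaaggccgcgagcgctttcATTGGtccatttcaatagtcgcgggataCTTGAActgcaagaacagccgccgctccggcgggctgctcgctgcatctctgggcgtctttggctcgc
CDC20, chr1:43358881-43359020, plus strand: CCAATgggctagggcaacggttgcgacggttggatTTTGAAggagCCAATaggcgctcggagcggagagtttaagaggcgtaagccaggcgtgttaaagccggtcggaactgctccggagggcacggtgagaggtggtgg
CCNB1, chr5:69167050-69167189, plus strand: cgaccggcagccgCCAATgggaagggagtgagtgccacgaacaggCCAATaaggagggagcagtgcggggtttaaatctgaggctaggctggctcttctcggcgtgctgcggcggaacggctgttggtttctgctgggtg
PLK1, chr16:23678789-23678928, plus strand: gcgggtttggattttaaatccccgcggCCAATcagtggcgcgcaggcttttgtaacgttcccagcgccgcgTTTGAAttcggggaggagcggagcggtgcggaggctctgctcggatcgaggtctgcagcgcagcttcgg

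Over the full windows of 300 bases, TTTGAA was found in 5 of the 9 genes, against 15.5% of 27305 genes with such a window. TTCGAA was found in 1 (1.47% of all), CTTGAA in 1 (11.3%) and CCAAT in 7 (35.7%). The letters CTTGAA were added after the CCNA2 window had been read. TTTGAA or TTCGAA together with a CCAAT box occurred in 5 of the 9 windows, against 6.64% of all. With CTTGAA counted as well, which adds CCNA2, there were 6 of the 9, against 10.01% of all. The 5 held genes that fell (MAD2L1, BUB1), genes that rose (CDK1, PLK1) and CDC20, so the presence of these letters did not separate the directions. In PLK1 the CCAAT box began 73 bases and TTTGAA 29 bases before the start, and in BUB1 the CCAAT boxes began 79 and 54 bases before the start and TTCGAA at base 2 of the transcript. CCNB1 had CCAAT boxes 87 and 55 bases before the start and none of the CHR letters searched. CDC25C had no match in the window at its outermost start. Of 3 further starts listed for it, 1 had 1 TTTGAA and 3 CCAAT matches in its window, 1 had 1 of each and 1 had none. A further start of CDK1 had 3 TTTGAA and 2 CCAAT matches.

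The 10 genes split between the lines. In SW620 MAD2L1, BUB1, CCNA2 and CDC25C fell, CCNB1, CDK1 and PLK1 rose, and BUB1B, TTK and CDC20 did not pass limma's moderated test at a Benjamini-Hochberg adjusted p of 0.05. Thus 4 of 10 were lower, where 19.5% of all genes were, and 3 of 10 were higher, where 16.0% of all genes were. The test called 35.6% of all genes in either direction, and 49.8% of the 9475 genes brighter than the median feature. That second share is the nearer background, because every one of the 10 was brighter than 80% of features or more (percentiles 81.0 to 98.0). Among these brighter genes 27.4% were lower and 22.5% were higher. The 3 of 10 that were higher lie near that share, and with only 10 genes the 4 that were lower are not read as an excess either. The arrays of the lines did not overlap for 7 of the 10, against 45.7% of all genes. That share was not worked out for the brighter genes alone. No member reached a 2-fold difference. Only 6.07% of all genes, and 869 of the 9475 brighter ones, were called with a difference of that size. With 10 genes the absence of such a call is not read as a shortfall. The median difference of the 10 was -0.097 on the log2 scale against 0.0132 over all genes. In bulk RNA, fewer cells in G2 or mitosis and less transcript per cell cannot be told apart.

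**Figure D1:**
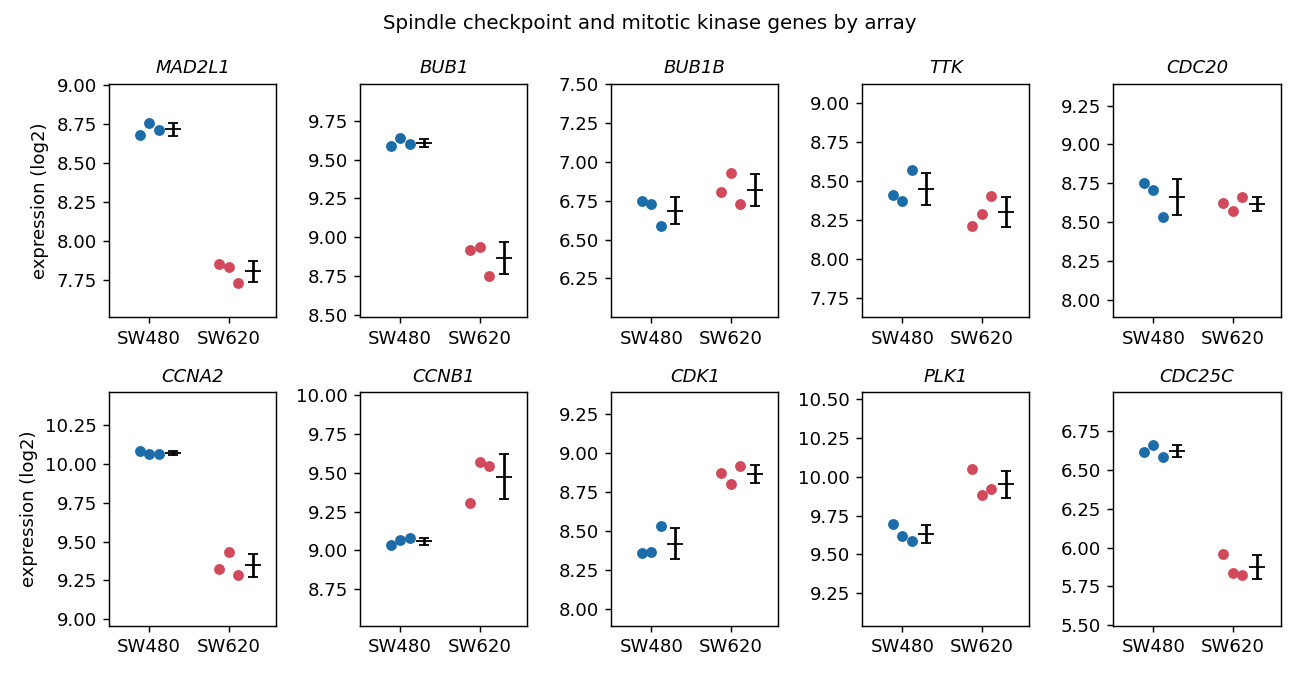
Deposited log2 expression of each gene on every array, with SW480 in blue, SW620 in red, and the mean and SD (n = 3) in black beside the points; each panel spans 1.5 log2 units around its own mean, and levels are not comparable between genes. The arrays of the lines are apart for 7 genes and overlap for BUB1B, TTK and CDC20.

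Among the checkpoint proteins, MAD2L1, which forms the inhibitor of CDC20, had the largest fall of the 10. Its log2 levels were 8.68, 8.76 and 8.71 on the SW480 arrays and 7.85, 7.83 and 7.73 on the SW620 arrays. The lowest SW480 array lay 0.826 above the highest SW620 array. The mean went from 8.72 ± 0.0409 (SD, n = 3) to 7.80 ± 0.0669 (n = 3), 1.88-fold lower in SW620 (log2 difference -0.91, standard error 0.0819, limma adjusted p = 1.47e-06), and 92.9% of all genes differed by no more than this in size.

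BUB1, the kinase that marks centromeric histone H2A and gathers other checkpoint proteins at kinetochores, fell too. It read 9.59, 9.64 and 9.60 in SW480 and 8.92, 8.94 and 8.75 in SW620. All 3 SW620 arrays were below all SW480 arrays, and SW620 replicate 3 was the lowest. The difference was -0.74 (standard error 0.0851, limma adjusted p = 1.52e-05), or 1.67-fold lower.

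BUB1B encodes BUBR1, the BUB1 relative that sits in the mitotic checkpoint complex with MAD2 and CDC20. Its levels were 6.74, 6.73 and 6.58 in SW480 and 6.80, 6.93 and 6.73 in SW620, and the ranges overlapped. The difference was 0.13 (95% interval -0.06 to 0.33, limma adjusted p = 0.286). Within the arrays, the log2 ratio of BUB1 to BUB1B fell by 0.874 in SW620 (standard error 0.0606, n = 3 per line). The pair was chosen with its values known, so this shift was not tested.

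TTK, also known as MPS1, is the kinase at the head of the checkpoint. Its arrays read 8.41, 8.37 and 8.57 in SW480 and 8.21, 8.29 and 8.40 in SW620. SW620 replicates 1 and 2 lay below every SW480 array and replicate 3 lay among them. The difference of -0.15 had a 95% interval from -0.35 to 0.05 (limma adjusted p = 0.234).

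CDC20, the target of the checkpoint, gave the smallest difference of the group. Levels were 8.75, 8.71 and 8.53 in SW480 and 8.62, 8.57 and 8.66 in SW620, so that all SW620 arrays lay inside the SW480 range. The difference was -0.04 (95% interval -0.23 to 0.15, limma adjusted p = 0.753). A change of CDC20 by more than 0.23 in either direction therefore lies outside the interval, whereas MAD2L1 differed by -0.91. The log2 ratio of MAD2L1 to CDC20 fell by 0.869 in SW620 (standard error 0.0955, n = 3 per line, not tested for the same reason).

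**Figure D2:**
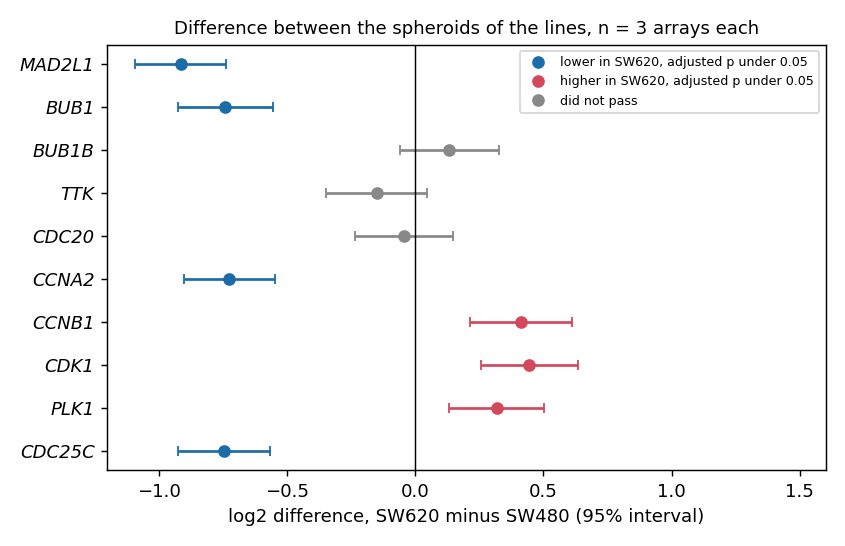
Log2 difference of each gene, SW620 minus SW480, as a point with its 95% interval from the limma fit (n = 3 arrays per line). Falls run from -0.91 (MAD2L1) to -0.72 (CCNA2), rises from 0.32 (PLK1) to 0.45 (CDK1), and the intervals of BUB1B, TTK and CDC20 include 0.

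The mitotic cyclins went opposite ways. CCNA2, cyclin A2, which serves CDK2 in S phase and CDK1 at the entry into mitosis, read 10.08, 10.06 and 10.07 in SW480 and 9.33, 9.43 and 9.28 in SW620. The SW480 arrays differed among themselves by an SD of 0.0119 only, and no SW620 array came within 0.631 of them. The difference was -0.72 (standard error 0.0817, limma adjusted p = 1.27e-05), or 1.65-fold lower.

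CCNB1, cyclin B1, the main partner of CDK1 in mitosis, read 9.04, 9.06 and 9.08 in SW480. Its SW620 arrays read 9.31, 9.57 and 9.54, all higher, with replicate 1 apart from the rest. The difference was 0.41 (standard error 0.0914, limma adjusted p = 0.00304), or 1.33-fold higher. The log2 ratio of CCNA2 to CCNB1 thus fell by 1.14 in SW620 (standard error 0.0833, n = 3 per line, not tested for the same reason).

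CDK1, the kinase that drives mitosis, rose with its cyclin. Levels were 8.36, 8.37 and 8.53 in SW480 and 8.87, 8.80 and 8.92 in SW620, with no overlap. The difference was 0.45 (standard error 0.0865, limma adjusted p = 0.00118), or 1.36-fold higher.

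PLK1, Polo-like kinase 1, which acts at centrosomes and kinetochores and promotes CDK1 activation, had the smallest of the called changes. It read 9.70, 9.62 and 9.59 in SW480 and 10.05, 9.88 and 9.92 in SW620, and the lines were 0.187 apart at their nearest arrays. The difference was 0.32 (standard error 0.0849, limma adjusted p = 0.0101), or 1.25-fold higher, a call that is lost at a threshold of 0.01.

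CDC25C, the phosphatase that activates CDK1, fell while its substrate rose. The SW480 arrays read 6.62, 6.66 and 6.59, and the SW620 arrays 5.96, 5.84 and 5.83. Its difference was -0.75 (standard error 0.0825, limma adjusted p = 1.06e-05), or 1.68-fold lower. Relative to CDK1 its log2 level fell by 1.19 in SW620 (standard error 0.0926, n = 3 per line, not tested for the same reason).

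Position was a feature that the choice of genes had not used. For each gene the 10 measured genes on either side were read from the order of genes in the RefSeq table (assembly GRCh38.p14). The 20 neighbours of BUB1 on chromosome 2 included 17 that fell and 0 that rose, with a median of -0.495, where 34.3% of the chromosome's measured genes fell and 7.09% rose. Several of these neighbours belong to near-identical copies (the RGPD and LIMS3 genes), which an array may not tell apart. One of the neighbours that fell is a further mitosis gene, ANAPC1, the scaffold of the anaphase-promoting complex (-0.34, standard error 0.0854, limma adjusted p = 0.00654).

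Around CCNB1 on chromosome 5 the picture was the reverse. Of its 20 neighbours 16 rose and 0 fell, with a median of 0.593, while 20.2% of chromosome 5 rose and 28.3% fell. CCNB1 itself, at 0.41, lay below that median. The stretch holds 3 more genes of the mitosis lists: CENPK and CENPH, proteins of the inner kinetochore that rose by 0.99 and 0.85, and CDK7, the kinase that activates CDK1, which rose by 0.46.

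CDK1 on chromosome 10 had 10 neighbours that rose and 0 that fell (median 0.281), against 25.4% and 13.0% of the chromosome. ZWINT, a kinetochore protein that rose by 0.84, was among them. CDC25C lies on chromosome 5 as CCNB1 does, but 8 of its neighbours fell and 2 rose (median -0.166); the 2 were 1 without SW480 replicate 2, SW620 replicate 1 or SW620 replicate 2, and with repeat quantile normalization or cyclic loess. Among those that fell was CDC23, a subunit of the anaphase-promoting complex (-0.39).

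MAD2L1 and CCNA2 lie near each other on chromosome 4, with 6 measured genes between them, and share 12 neighbours, so they are not separate observations of position. Of the 20 around MAD2L1 10 fell and 1 rose (median -0.24; 0 rose without SW480 replicate 1 or SW620 replicate 3), and of the 20 around CCNA2 9 fell and 1 rose (median -0.196), whereas 19.0% of chromosome 4 fell and 15.7% rose. Both genes fell by more than these medians.

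The called gene with the least movement around it was PLK1 on chromosome 16, where 1 of 20 neighbours rose and 0 fell (median 0.0584), against 30.6% and 10.2% of that chromosome; the 1 became 4 with a trended and robust variance, 3 with centring on the 75th percentile, and 2 without SW620 replicate 3. Of the genes that did not pass, BUB1B and TTK had neighbours that changed both ways in equal numbers, while more neighbours of CDC20 rose than fell. BUB1B had 2 higher and 2 lower, against 18.1% and 11.6% of chromosome 15. TTK had 3 higher and 3 lower, against 24.0% and 10.5% of chromosome 6. The 3 lower were 5 without SW620 replicate 1, with the replicate block, with a trended and robust variance and with only features above the median. CDC20 had 7 higher and 1 lower (median 0.142), against 17.0% and 12.2% of chromosome 1. The 7 became 4 at a threshold of 0.01. The mitosis genes near BUB1, CCNB1, CDK1 and CDC25C were named after their values had been seen, and DNA copy number was not analysed here.

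**Figure D3:**
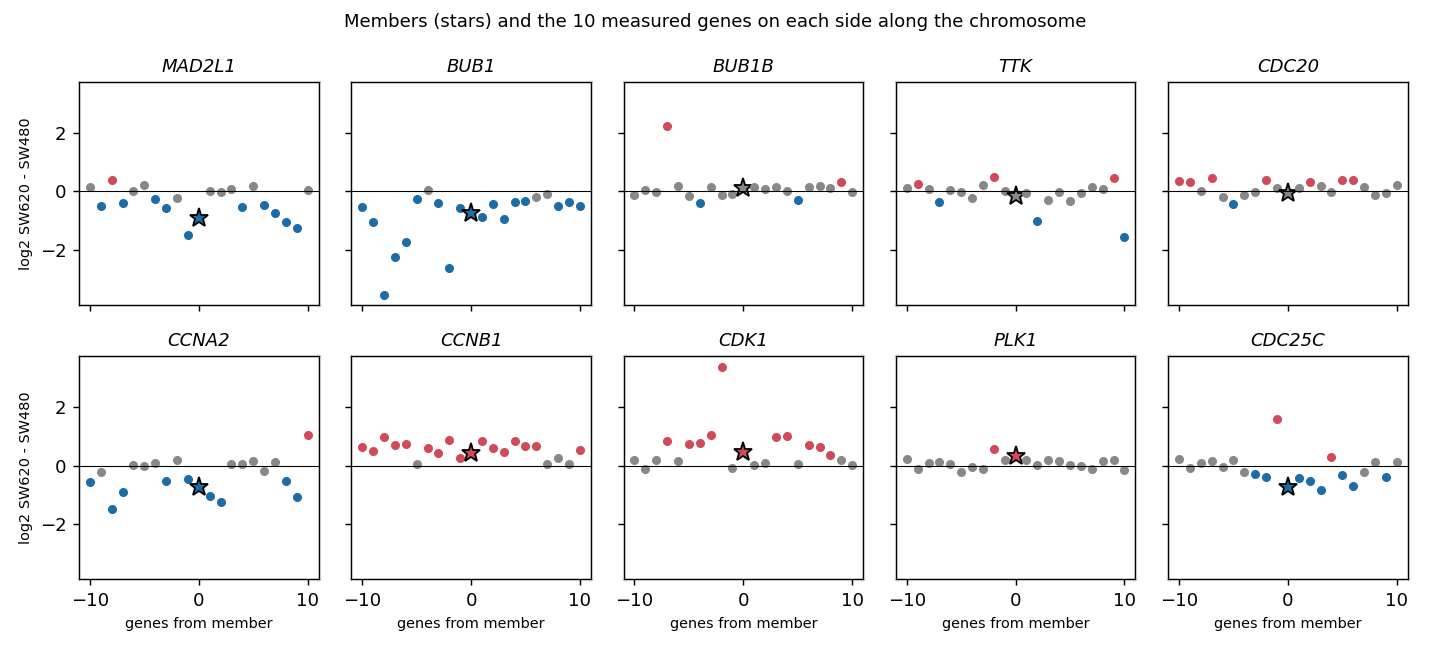
Log2 difference, SW620 minus SW480, of each gene (star) and of the 10 measured genes on each side, in order along the chromosome, with blue for lower and red for higher at a limma adjusted p under 0.05 and grey for the rest. Nearly all points around BUB1 lie below 0 (17 of 20 fell) and most around CCNB1 above it (16 of 20 rose), while 19 of 20 around PLK1 and 16 of 20 around BUB1B did not pass.

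The rest of the mitotic machinery, with markers of proliferation, was read from 8 lists chosen by function, and 126 of their 160 further genes were measured. In SW620 34 of them rose, 37 fell and 55 did not pass limma's test, so 56.3% changed, against 35.6% of all genes and 49.8% of the brighter ones. Their median difference was 0.00426. Rises and falls were nearly balanced. Beside the counts of each list below stand the brighter genes, of which 27.4% fell and 22.5% rose. No list has more than 19 measured genes, so these counts are not read as an excess or a shortfall.

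Of 13 measured checkpoint and kinetochore genes, 5 fell and 2 rose, with a median of -0.123. SKA2 and SKA3, subunits of the complex that couples kinetochores to microtubule ends, fell by 0.96 and 0.84, and NDC80, the kinetochore's main microtubule binder, fell by 0.71. ZWINT rose by 0.84 and MAD2L1BP, the p31comet protein that takes MAD2 out of its active complex, rose by 0.35. BUB3, the partner of BUB1 and BUBR1, differed by -0.08 (95% interval -0.25 to 0.10, limma adjusted p = 0.523).

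The anaphase-promoting complex and its partners showed 7 genes higher and 5 lower of 17. The subunits ANAPC15 and CDC16 rose by 0.66 and 0.48, and FBXO5, an inhibitor of the complex, by 0.60. UBE2S, the ubiquitin-conjugating enzyme that lengthens its chains, fell by 0.47, and the subunits CDC26 and CDC23 fell by 0.46 and 0.39.

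Of 17 regulators of CDK1, 5 rose and 2 fell. CCNH and CDK7, which together form the CDK-activating kinase, rose by 0.78 and 0.46, and CHEK1, the checkpoint kinase that restrains CDC25 phosphatases, rose by 0.34. CKS2, a small CDK-binding protein, fell by 0.38, and HMMR, a spindle protein, by 0.34. WEE1, the kinase that adds the phosphate that CDC25C removes, differed by -0.04 (95% interval -0.22 to 0.15, limma adjusted p = 0.776). The count of 5 was 3 without SW480 replicate 3, without SW620 replicate 1 or without SW620 replicate 3.

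Of 17 Aurora, passenger and other mitotic kinase genes, 4 rose and 4 fell. The Polo-like relatives of PLK1 were split, since PLK2 rose by 0.65, PLK3 rose by 0.42 and PLK4, the kinase of centriole duplication, fell by 0.69. The call of PLK3 was lost without SW480 replicate 3 (limma adjusted p = 0.0779) and without SW620 replicate 1 (limma adjusted p = 0.0638). It was also lost with features tested separately (limma adjusted p = 0.0792) and at the threshold of 0.01 (limma adjusted p = 0.0167). NEK6 rose by 0.66, and NEK9, which acts upstream of NEK6, fell by 0.88, while PBK fell by 0.59.

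Cohesin and separase genes had 5 higher and 4 lower of 16. The cohesin loader NIPBL rose by 0.70, the release factor WAPL by 0.52 and the core subunit SMC1A by 0.46. The subunit STAG1 fell by 0.72, SGO2, a protector of centromeric cohesin, by 0.64 and the acetyltransferase ESCO1 by 0.56.

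Among 19 centromere proteins 7 rose and 4 fell. CENPN, which binds the centromeric nucleosome, rose by 1.14 (2.20-fold), and CENPK and CENPT rose by 0.99 and 0.97. CENPA, the centromeric histone itself, fell by 0.69, CENPL by 0.41 and CENPO by 0.31. The 4 that fell were 2 without SW480 replicate 3 or SW620 replicate 1, and 1 without SW620 replicate 2, where CENPL (limma adjusted p = 0.0544) and CENPO (limma adjusted p = 0.0659) lost their calls.

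Of 12 transcription factor genes of the DREAM, B-MYB and FOXM1 system, 5 fell and 1 rose. TFDP2, a partner of E2F proteins, fell by 0.80, the MuvB subunit LIN37 by 0.62 and DYRK1A, the kinase that assembles DREAM, by 0.40, while RBBP4 rose by 0.41 (2 genes rose without SW620 replicate 3 and 3 with a trended and robust variance). FOXM1 differed by -0.06 (limma adjusted p = 0.652) and MYBL2, which encodes B-MYB, by 0.18 (limma adjusted p = 0.12).

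**Figure D4:**
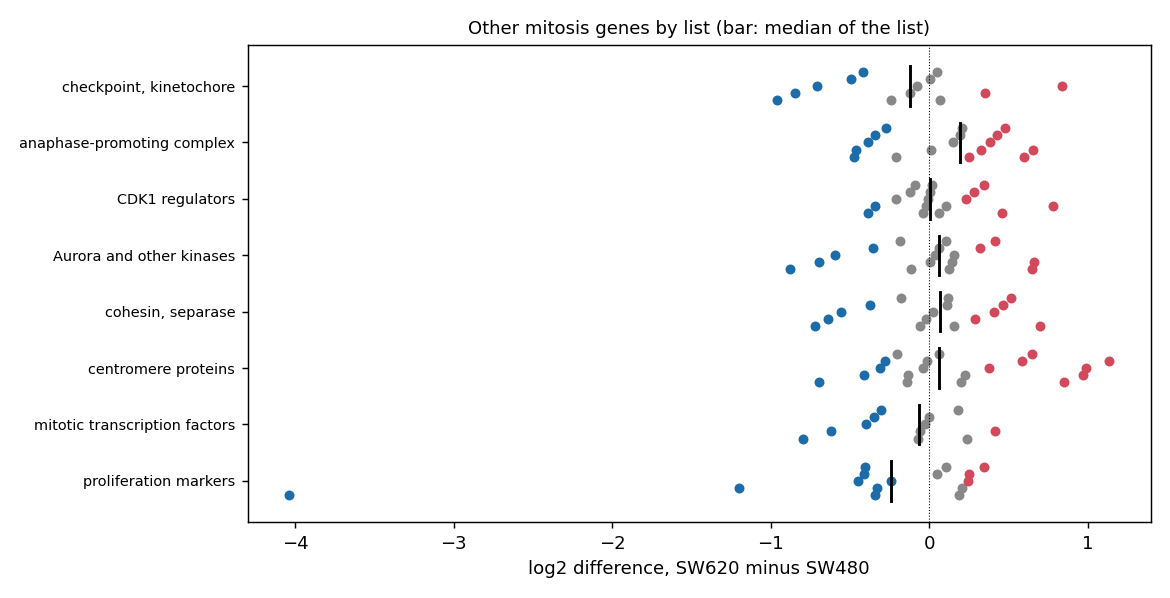
Log2 difference, SW620 minus SW480, of the 126 further genes by list, with blue for lower and red for higher at a limma adjusted p under 0.05, grey for the rest and a black bar at each list's median. Every list holds genes on both sides of 0, and the leftmost point is CCND2 at -4.04.

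Of 15 measured markers of proliferation, 8 fell, 3 rose and 4 did not pass, with a median of -0.242, where 27.4% of the brighter genes fell and 22.5% rose. This list holds the cyclins described under the other observations. CCND1, CCND2 and CCNE1 are among the 8 that fell, and CCND3 and CCNE2 among the 3 that rose. MKI67, which encodes the Ki-67 antigen, went from 10.41 to 10.17 (difference -0.24, limma adjusted p = 0.0405). The call of MKI67 was lost without SW480 replicate 2 or 3 or SW620 replicate 1 or 2 (limma adjusted p up to 0.128), with centring on the 75th percentile (0.0688), with the replicate block (0.0532) and with features tested separately (0.0963). TOP2A, the topoisomerase of dividing cells, went from 11.32 to 10.90 (-0.41, limma adjusted p = 0.00122). Among those that rose was PCNA, the sliding clamp of replication (0.25, limma adjusted p = 0.0378). That call was lost when any 1 array other than SW620 replicate 1 was left out (limma adjusted p up to 0.143), with cyclic loess (0.101), repeat quantile normalization (0.0599), the replicate block (0.0619) and features tested separately (0.0912). The 3 that rose were 1 without SW480 replicate 1 or 2 or SW620 replicate 2, and 1 with the replicate block. The part of these markers in the differences of the 10 genes was not tested.

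Across the series, the correlation r over features was 0.988 to 0.992 between arrays of one line and 0.963 to 0.965 between the lines. The 10 genes had a median SD between arrays of 0.0491 in SW480 and 0.0812 in SW620, against 0.0955 and 0.105 over all genes. Of 10 measured colon epithelial markers, 7 in SW480 and 8 in SW620 were brighter than the median feature. By their mean over all arrays, 9475 of all 14884 genes were brighter too. The epithelial adhesion molecule EPCAM read 9.71 and 9.61. Limma called 4 of the 10 epithelial genes higher in SW620 and only 1 lower, the intestinal factor CDX2, by 1.54. Among the higher ones were VIL1 (0.62) and KRT8 (0.40). The carcinoembryonic antigen CEACAM5 rose by 2.42 from an SW480 level of 3.93. That level lies below the median feature (4.065), so the size of that rise is uncertain. Of 8 endothelial markers 1 was brighter than the median feature in each line, and none passed the test; PECAM1 read 3.50 and 3.42. The 4 measured leukocyte markers summed to 159 to 166 in SW480 and 161 to 168 in SW620 (antilogged signal), with CD68 higher by 0.43 and LAPTM5 lower by 0.41. Only 2 fibroblast markers were measured, and their summed signal was 29.6 to 44.2 in SW480 and 240 to 281 in SW620. The matrix protein gene LUM made that difference (3.22), while DCN read 3.09 and 3.26. The part of LUM-expressing cells in the differences of the 10 genes was not tested.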

How the data were processed

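The deposited table holds log2 values for 53616 features on 6 arrays, which the authors made by RMA in Partek, according to the submitters' processing notes; of versions and settings the sources used here say nothing. In RMA background is removed, arrays are equalised and probes are combined on a log scale. Base 2 was inferred, since values ran from 1.99 to 13.9. Platform annotation gave 16098 features 1 gene symbol, and the feature with the highest mean stood for each of 14884 genes, with no filter on dim features. SW620 was set against SW480 in limma 3.58.1 (R 4.3.3) by lmFit and eBayes without covariates; tests were two-sided, p-values were adjusted by Benjamini-Hochberg across every gene, and 0.05 was the threshold. Standard errors and 95% intervals are the moderated ones, except for ratios of 2 genes, whose standard errors come from the arrays alone. Precision is limited by the number of arrays.

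The 10 genes and the lists were chosen with earlier results of these data known. Named were all 10 genes, up to 3 called genes per direction and list with the largest differences and no overlap between the lines, and up to 2 per marker list with its first genes. BUB3, WEE1, FOXM1, MYBL2, MKI67, TOP2A, DCN, CDK2, CDK4, CDK6 and the mitosis genes beside a member were named outside this rule. Same-numbered arrays did not deviate together (r from -0.0234 to -0.00889), so the numbers do not pair them. In simulated data for this comparison (14884 genes), 46 of 50 genes changed by 0.5 were recovered and 50 of 50 changed by 1, with 8 false calls among 204. The simulation drew independent noise for each array and changed a far smaller share of genes than the 35.6% called here. Its rates therefore need not hold for these data.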

Additional observations from a re-analysis of the deposited data

How the results depend on the processing

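Over 17 alternatives (other scalings, filters on dim features, a trended and robust variance, averaging a gene's features, testing each feature on its own, a block for the replicate number, a threshold of 0.01 and leaving out each array), the 4 falls and 3 rises kept their direction. Each of these genes has 1 feature, so only the other scalings and leaving out an array could change its difference. The remaining alternatives could change only the call. The 4 falls and 3 rises also kept their call, except PLK1 at the threshold of 0.01 (limma adjusted p = 0.0101). None of BUB1B, TTK and CDC20 passed under any of the 17. MAD2L1 ranged from -0.954 to -0.875, CCNB1 from 0.359 to 0.496 and PLK1 from 0.26 to 0.352. With the replicate number as a block the counts stayed at 3 higher and 4 lower, and of the further mitosis genes 31 rose and 35 fell. Over all alternatives 27 to 36 of these rose and 30 to 40 fell. Of 65 other named genes, 6 lost their call somewhere (PLK3, CENPL, CENPO, CCND3, PCNA and MKI67), and the block ended those of PCNA (limma adjusted p = 0.0619), CCND3 (0.0532) and MKI67 (0.0532). MYBL2 and CDK6 passed in places where they otherwise did not, both with a trended and robust variance. No value reversed. Scaling moved the median of all genes between -0.0117 and 0.0402. The same alternatives were run for the neighbours, for each list and for genes named outside the rule after the data had been seen: 14 to 17 neighbours of BUB1 fell, 15 to 17 of CCNB1 rose and 9 to 11 of CDK1 rose. Detection calls were not used here, so signal over background could not be set beside the levels.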

Other observations

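Among the cyclins of the G1 phase, CCND2, cyclin D2, read 7.93 ± 0.10 (SD, n = 3) on the SW480 arrays and 3.90 ± 0.118 (SD, n = 3) on those of SW620 (difference -4.04, limma adjusted p = 5.49e-12). The SW620 level lies below the median feature (4.065), so no exact fold is given, and the mean of the features of CCND2 differed by -2.71. CCND1, cyclin D1, fell by 1.20 (2.29-fold), CCNE1, cyclin E1, fell by 0.45 and CCNE2, cyclin E2, rose by 0.35. CCND3, cyclin D3, differed by 0.25 (limma adjusted p = 0.0401), a call lost when any 1 array other than SW480 replicate 3 was left out (limma adjusted p up to 0.18), with the replicate block (0.0532), with a trended and robust variance (0.0645) and with features tested separately (0.101). Their kinase partners did not pass the test, with differences of 0.05 for CDK4, 0.21 for CDK6 and 0.11 for CDK2. CDK6 passed with a trended and robust variance (limma adjusted p = 0.0409) and without SW620 replicate 3 (0.0328).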
